A study of Homo sapiens with 9 samples.

Results

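Immune checkpoint ligands are molecules on the surface of a cell, or released by it, that dampen the T cells, natural killer cells or macrophages that meet it. Here 10 genes were followed, taken by symbol from the 60649 genes of a count table: CD274 (PD-L1) and PDCD1LG2 (PD-L2), CD276 (B7-H3) and VTCN1 (B7-H4), PVR (CD155) and NECTIN2 (CD112), CD47, LGALS9 (galectin-9), and the ectoenzymes ENTPD1 (CD39) and NT5E (CD73). Of the 10 genes, 8 had enough reads to be tested, among 14274 genes tested in all. VTCN1 and ENTPD1 fell below the filter on low counts.

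Tumour cells that display PD-L1 or PD-L2 engage PD-1 on T cells and restrain them, and PD-L1 is a target of therapeutic antibodies in breast cancer. PVR and NECTIN2 bind the inhibitory receptor TIGIT and also the activating receptor CD226, CD47 signals to SIRPA on macrophages not to engulf the cell, and galectin-9 is a ligand of TIM-3. ENTPD1 and NT5E act in sequence outside the cell, turning ATP into AMP and AMP into adenosine, which suppresses T cells.

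The cells were MDA-MB-231, an established line of human triple-negative breast cancer. Control cells held the vector pLKO-GFP, and each of the other groups held a short hairpin RNA against AHR, the gene of the aryl hydrocarbon receptor, a ligand-activated transcription factor. The deposited labels call the hairpins shAHR#2 and shAHR#3, each group has 3 libraries, and every sample carries the treatment label proliferation. The study's methods list its hairpins as #1 and #2, and which of them corresponds to which label was not settled, so shAHR#2 here need not be the hairpin of that number in the study. The question was how depletion of the receptor altered gene expression in these cells. Transduced cells were selected with puromycin and pooled, so a group is a mixed population rather than a clone. Nothing states that the 3 libraries of a group came from separate cultures, so p-values measure only the spread between these libraries.

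Total counts ranged from 17407688 to 19509030 with pLKO-GFP, from 15991396 to 19112459 with shAHR#2 and from 19436825 to 20374460 with shAHR#3. AHR itself was at 118 ± 3.32 CPM (counts scaled to library size, here with TMM factors; SD, n = 3) with pLKO-GFP, 41.6 ± 1.07 with shAHR#2 and 47.7 ± 3.99 with shAHR#3, so it was at 35.3% and 40.5% of the control mean. Its libraries did not overlap between control and either hairpin. Of 10 markers of mammary carcinoma cells, KRT8 (mean 284 CPM with pLKO-GFP), KRT18 (304 CPM) and VIM (2634 CPM) were abundant. The epithelial markers EPCAM (6.62, 6.06 and 6.11 CPM on average with pLKO-GFP, shAHR#2 and shAHR#3) and CDH1 (0.909, 1.80 and 4.16 CPM) were low, and PGR was at 0 in all 9 libraries. Of 10 leukocyte markers, CD3D, CD3E, CD2, MS4A1 and NKG7 had no read in any library, and the summed level of the list was 1.47 to 1.82 CPM with pLKO-GFP, 4.05 to 5.42 with shAHR#2 and 3.22 to 3.68 with shAHR#3. The summed level of 8 fibroblast and endothelial markers was 17.0 to 20.6, 26.0 to 27.5 and 42.5 to 45.8 CPM in the same order, with DCN at 0 in every library except 1 read in shAHR#3. The part of these markers in the results was not tested. In bulk RNA, fewer cells that carry a transcript and less transcript per cell cannot be told apart.

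The 250 bases upstream of a RefSeq start site (GRCh38.p14) are shown for 4 of the genes. CD274 and LGALS9 each rose with a different hairpin, while CD47 and NECTIN2 rose with both. CD276 and NT5E also rose with both and are not shown. Each window of CD276 held 0 matches to GCGTG and that of NT5E held 1, so the genes shown do not stand for all that rose with both. Capitals mark matches, on either strand, to 3 motifs chosen after the values of the genes were known. These are the interferon-stimulated response element GAAANNGAAA and the gamma-activated sequence TTCNNNGAA in CD274 and LGALS9, and the xenobiotic response core GCGTG, which the aryl hydrocarbon receptor binds, in CD47 and NECTIN2. Each run reads 5′ to 3′ along the gene, and that of LGALS9 includes the first transcribed base.
CD274 chr9:5450292-5450541 (plus strand): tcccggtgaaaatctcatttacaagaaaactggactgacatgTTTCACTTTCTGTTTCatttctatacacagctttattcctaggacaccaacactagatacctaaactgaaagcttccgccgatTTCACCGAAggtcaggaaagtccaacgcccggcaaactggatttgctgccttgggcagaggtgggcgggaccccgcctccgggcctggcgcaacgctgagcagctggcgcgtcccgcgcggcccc
LGALS9 chr17:27630938-27631188 (plus strand): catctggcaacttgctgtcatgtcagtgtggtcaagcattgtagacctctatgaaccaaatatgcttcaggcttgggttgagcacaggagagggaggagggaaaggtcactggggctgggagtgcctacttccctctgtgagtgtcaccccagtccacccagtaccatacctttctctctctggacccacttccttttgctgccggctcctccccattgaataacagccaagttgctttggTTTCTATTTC
CD47 chr3:108091032-108091281 (minus strand): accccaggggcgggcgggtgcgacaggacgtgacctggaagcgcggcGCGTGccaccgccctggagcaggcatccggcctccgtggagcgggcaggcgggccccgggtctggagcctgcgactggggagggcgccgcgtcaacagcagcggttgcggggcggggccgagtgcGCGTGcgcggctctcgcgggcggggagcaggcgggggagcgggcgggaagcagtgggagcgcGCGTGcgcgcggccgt
NECTIN2 chr19:44846047-44846296 (plus strand): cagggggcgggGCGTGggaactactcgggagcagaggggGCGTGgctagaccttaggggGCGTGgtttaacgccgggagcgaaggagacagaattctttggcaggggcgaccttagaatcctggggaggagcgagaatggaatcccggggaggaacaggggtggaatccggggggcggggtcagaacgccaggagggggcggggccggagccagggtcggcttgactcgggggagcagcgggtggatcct

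Upstream of CD274 there were 2 overlapping matches to GAAANNGAAA on the minus strand, between positions -208 and -193, and 1 match to TTCNNNGAA from -125 to -117. LGALS9 had 1 match to GAAANNGAAA that ends on its first transcribed base. CD47 had 3 matches to GCGTG, starting at -203, -78 and -16, and NECTIN2 had 3, starting at -239, -211 and -191. Windows of 300 bases (250 upstream and 50 downstream) were found for 9 of the 10 genes, and PDCD1LG2 was the exception. Over 35114 such windows of all genes, 36.5% held GCGTG, 7.66% held TTCNNNGAA and 3.57% held GAAANNGAAA. The windows of PVR and CD276 held none of the 3 motifs, and among the windows of VTCN1, NT5E and ENTPD1 the only matches were to GCGTG. A match describes letters in the window and is neither a binding site nor a cause of the values below.

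With shAHR#2, 6 of the 8 tested genes were higher than with pLKO-GFP and 0 were lower, and with shAHR#3 5 were higher and 0 lower (quasi-likelihood test of edgeR, adjusted by Benjamini-Hochberg over all 14274 genes, threshold 0.05). CD276, NECTIN2, CD47 and NT5E rose with both hairpins, CD274 and PDCD1LG2 rose with shAHR#2, and LGALS9 rose with shAHR#3. These counts stand against a background in which most genes were called. With shAHR#2, 65.8% of all tested genes were called, 32.6% higher and 33.2% lower. With shAHR#3, 54.4% were called, 26.9% higher and 27.5% lower. The median log2 fold change of the 8 genes was 0.57 with shAHR#2, beside -0.0032 over all tested genes, and 0.16 with shAHR#3, beside -6.9e-05. The medians over all genes are near 0 because rises and falls balance. Taken without sign, the medians were 0.57 beside 0.32 with shAHR#2, and 0.16 beside a larger 0.23 with shAHR#3. Both comparisons use the same 3 control libraries, so they are not independent.

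**Figure D1:**
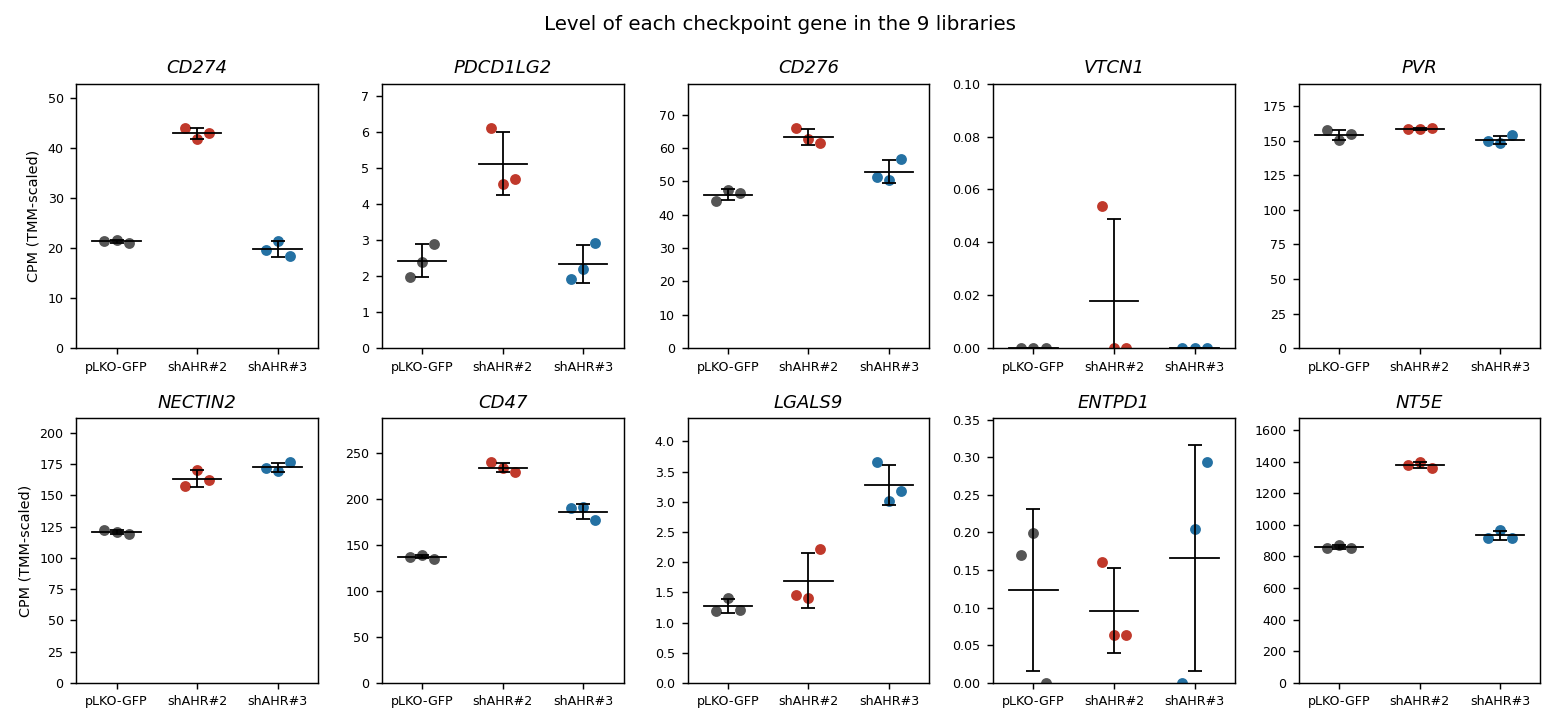
Level of each of the 10 genes in CPM (TMM-scaled, vertical axes from 0, each gene on its own scale) in the 9 libraries; points are libraries, horizontal lines are group means and bars are ± 1 SD (n = 3). CD274 is at 41.8 to 44.0 CPM with shAHR#2 and at 18.4 to 21.7 CPM in the other 6 libraries, while VTCN1 has 1 read in all and ENTPD1 at most 6 per library.

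CD274 encodes PD-L1 and lies on chromosome 9 (ENSG00000120217.14, 5450503 to 5470566, plus strand, GENCODE 44 on GRCh38). It was at 21.4, 21.7 and 21.0 CPM in the pLKO-GFP libraries, at 44.0, 41.8 and 43.0 CPM with shAHR#2, and at 19.6, 21.4 and 18.4 CPM with shAHR#3. All shAHR#2 libraries were above every other library, and the shAHR#3 libraries overlapped the controls. CD274 rose 2.01-fold with shAHR#2 (log2 fold change 1.01, SE 0.07, adjusted p = 2.99e-16), a change that 11.9% of all tested genes equalled or exceeded. With shAHR#3 the log2 fold change was -0.11 (95% interval -0.25 to 0.03, adjusted p = 0.196), and this interval lies below that with shAHR#2 (0.87 to 1.14). The hairpins differed by -1.12 (SE 0.07, adjusted p = 7.71e-17, shAHR#3 minus shAHR#2), a difference that 3.43% of tested genes equalled or exceeded. Here 42.3% of all tested genes differed between the hairpins, 21.9% higher and 20.4% lower with shAHR#3.

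PDCD1LG2, the other PD-1 ligand, lies downstream of CD274 on the same strand (ENSG00000197646.8, chromosome 9, 5510531 to 5571282). It had 35, 48 and 57 reads with pLKO-GFP, 114, 71 and 74 with shAHR#2, and 37, 43 and 60 with shAHR#3. The shAHR#2 libraries lay above all others at a scaled level of 4.56 to 6.11 CPM, and the ranges of control (1.98 to 2.89 CPM) and shAHR#3 (1.90 to 2.93 CPM) nearly coincided. The log2 fold change was 1.08 (SE 0.19, adjusted p = 4.89e-06) with shAHR#2 and -0.05 (95% interval -0.48 to 0.38, adjusted p = 0.865) with shAHR#3, and the hairpins differed by -1.13 (SE 0.19, adjusted p = 5.30e-06). Both PD-1 ligands thus had their higher level in the same 3 libraries, while AHR was lower with each hairpin.

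**Figure D2:**
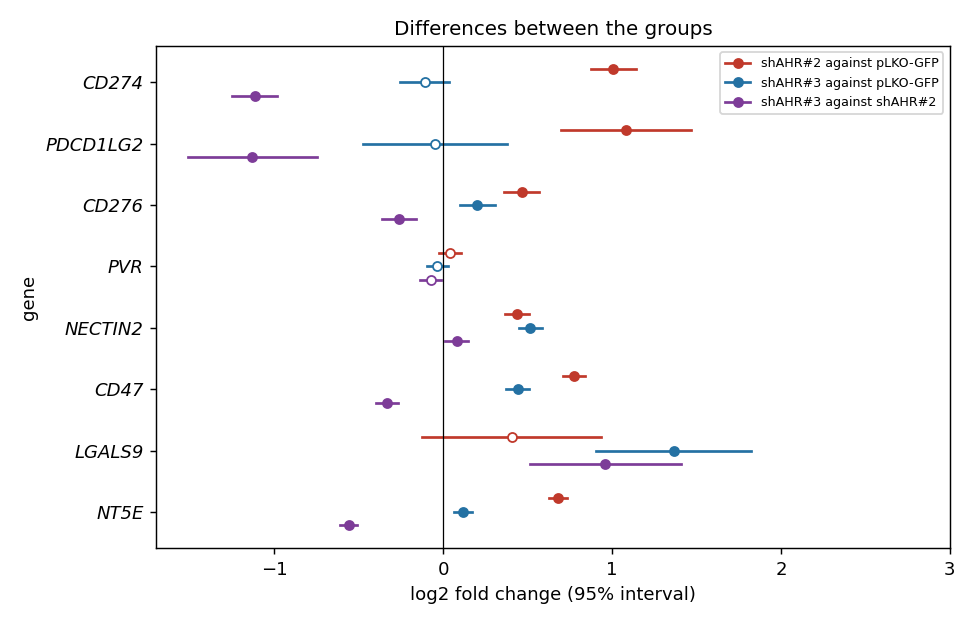
Log2 fold change (horizontal axis) of the 8 tested genes in 3 comparisons, with bars for the 95% interval; filled points passed adjusted p under 0.05 and open points did not. NECTIN2 and CD47 lie to the right of 0 with both hairpins, and CD274 and PDCD1LG2 are near 1 with shAHR#2 and near 0 with shAHR#3.

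The neighbours of CD274 were read because genes within a stretch of chromosome can move together. Of 15 annotated neighbours, 8 were tested. With shAHR#2, 4 of the 8 were higher, 1 lower and 3 not called, with a median log2 fold change of 0.17, and with shAHR#3 3 were higher, 2 lower and 3 not called, with a median of 0.11. Called were thus 5 of 8 with each hairpin, near the 65.8% and 54.4% of all tested genes, whose medians were -0.0032 and -6.9e-05. JAK2, a kinase that carries interferon signals, starts at -466 kb from the start of CD274 and had a log2 fold change of 0.43 (adjusted p = 9.54e-05) with shAHR#2 and 0.53 (adjusted p = 3.82e-06) with shAHR#3. PLGRKT, a plasminogen receptor and the nearest tested neighbour, was at -0.04 (adjusted p = 0.807) with shAHR#2 and fell by 0.36 on the log2 scale (adjusted p = 0.0276) with shAHR#3. RANBP6, an importin, fell by 0.36 (adjusted p = 1.82e-04) and 0.28 (adjusted p = 0.00241) on that scale, and ERMP1 rose by 0.29 (adjusted p = 7.23e-04) and 0.48 (adjusted p = 3.59e-07). No tested neighbour reached the fold of CD274 or PDCD1LG2 with shAHR#2.

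**Figure D3:**
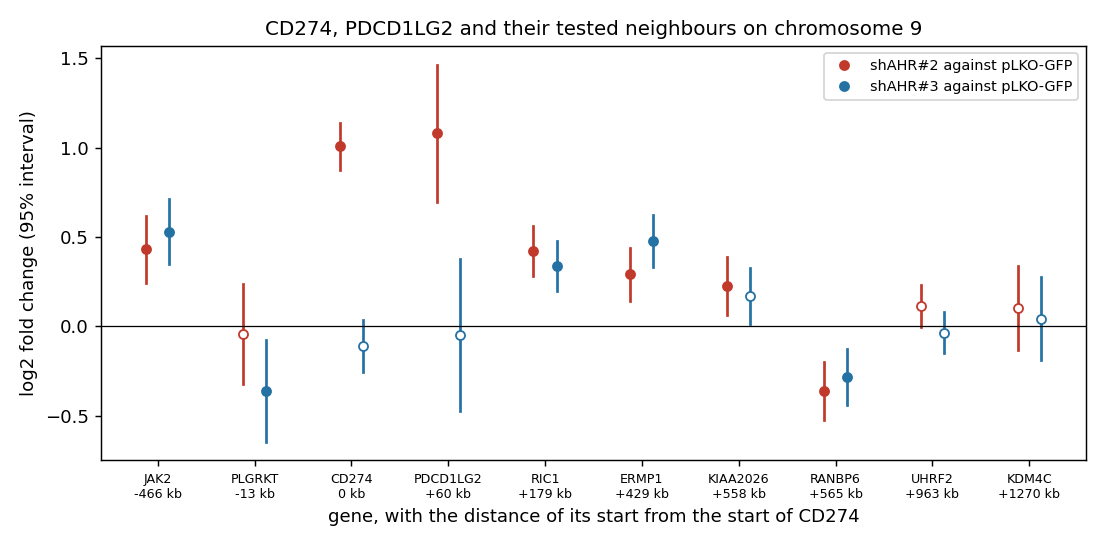
Log2 fold change (vertical axis, bars are 95% intervals) of CD274, PDCD1LG2 and their 8 tested neighbours in chromosome order, each labelled with the distance of its start from that of CD274; filled points passed adjusted p under 0.05. With shAHR#2 CD274 (1.01) and PDCD1LG2 (1.08) stand above the 8 neighbours, which lie between -0.36 and 0.43.

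CD276 encodes B7-H3, a B7 family protein of many carcinomas whose receptor is not settled. It was at 44.1, 47.4 and 46.5 CPM with pLKO-GFP, at 66.1, 62.7 and 61.4 CPM with shAHR#2 and at 51.4, 50.6 and 56.8 CPM with shAHR#3. The 3 groups did not overlap. CD276 was 1.38-fold higher with shAHR#2 (log2 fold change 0.46, SE 0.05, adjusted p = 3.88e-10) and 1.15-fold higher with shAHR#3 (0.20, SE 0.05, adjusted p = 9.45e-04), and the hairpins differed by -0.26 (adjusted p = 4.17e-05). Changes from control at least as large were seen in 35.9% of all tested genes with shAHR#2 and in 54.7% with shAHR#3. VTCN1, which encodes B7-H4, had 1 read in all 9 libraries together, in shAHR#2 replicate 1, so no difference was detectable. A count of 0 allows up to 3 reads, or 0.146 to 0.193 CPM depending on the library, and this covers counting error only.

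PVR and NECTIN2 share the receptors TIGIT and CD226 but differed in their values. PVR was at 158, 151 and 155 CPM with pLKO-GFP, at 158, 158 and 159 CPM with shAHR#2 and at 150.0, 148 and 154 CPM with shAHR#3. Its log2 fold change was 0.04 (95% interval -0.02 to 0.10, adjusted p = 0.274) with shAHR#2 and -0.04 (-0.10 to 0.03, adjusted p = 0.359) with shAHR#3, and the hairpins differed by -0.07 (95% interval -0.14 to -0.01, adjusted p = 0.0543). The shAHR#2 libraries lay just above the highest control, and the shAHR#3 libraries overlapped the controls.

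NECTIN2 was at 122, 120 and 119 CPM with pLKO-GFP, at 157, 171 and 162 CPM with shAHR#2 and at 172, 169 and 176 CPM with shAHR#3. Every hairpin library was above every control, and the hairpin groups overlapped each other. The rise was 1.35-fold with shAHR#2 (log2 fold change 0.44, SE 0.03, adjusted p = 4.72e-14) and 1.43-fold with shAHR#3 (0.52, SE 0.03, adjusted p = 5.32e-16). The difference between hairpins was 0.08 (95% interval 0.01 to 0.15, adjusted p = 0.0488) and missed the threshold under most alternatives, with an adjusted p from 0.0120 to 0.276.

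CD47, the signal against engulfment, was at 137, 139 and 135 CPM with pLKO-GFP, at 240, 233 and 229 CPM with shAHR#2 and at 190, 191 and 177 CPM with shAHR#3. The groups were fully apart, with shAHR#3 between the others. The rise was 1.71-fold with shAHR#2 (log2 fold change 0.77, SE 0.03, adjusted p = 5.41e-22) and 1.36-fold with shAHR#3 (0.44, SE 0.03, adjusted p = 2.88e-14), and the hairpins differed by -0.33 (adjusted p = 3.30e-11). Changes from control at least as large were seen in 18.3% of all tested genes with shAHR#2 and in 24.9% with shAHR#3.

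LGALS9 encodes galectin-9 and had few reads, 21, 28 and 24 with pLKO-GFP, 27, 22 and 35 with shAHR#2 and 71, 59 and 65 with shAHR#3. The shAHR#3 libraries lay above all others. Its log2 fold change was 1.37 (SE 0.23, adjusted p = 3.13e-06) with shAHR#3, which 4.13% of tested genes equalled or exceeded, and 0.40 (95% interval -0.13 to 0.94, adjusted p = 0.175) with shAHR#2. The hairpins differed by 0.96 (SE 0.22, adjusted p = 4.99e-04), the opposite sign to CD274. LGALS9B and LGALS9C are near-identical copies whose reads the counting could have split. They had 4 to 18 and 0 to 11 reads per library. With the 3 genes summed, an alternative chosen after the data were seen, the log2 fold change with shAHR#2 was 0.71 (adjusted p = 0.00513), so the call for that hairpin depends on how the copies are counted.

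NT5E, the enzyme that makes adenosine, was the most abundant of the 10 genes. It was at 854, 872 and 854 CPM with pLKO-GFP, at 1377, 1394 and 1358 CPM with shAHR#2 and at 916, 966 and 918 CPM with shAHR#3, and the 3 groups did not overlap. The rise was 1.60-fold with shAHR#2 (log2 fold change 0.68, SE 0.03, adjusted p = 1.80e-23) and 1.09-fold with shAHR#3 (0.12, SE 0.03, adjusted p = 1.56e-04). Changes at least as large were seen in 22.3% of all tested genes with shAHR#2 and in 71.8% with shAHR#3. The hairpins differed by -0.56 (adjusted p = 3.42e-20). ENTPD1, which acts before it, had 0 to 4 reads with pLKO-GFP, 1 to 3 with shAHR#2 and 0 to 6 with shAHR#3, and no difference was detectable at this depth. ENTPD1 overlaps the antisense gene ENTPD1-AS1, which had 148 to 348 reads per library. The use of strand in counting is not given in the sources used here, so reads of the pair may not be separable.

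Averaged over both hairpins, 7 of the 8 genes were higher, with PVR at 0.0024 on the log2 scale (adjusted p = 0.943). Over all tested genes 64.3% were called in this comparison, 31.5% higher and 32.9% lower, and the median log2 fold change was 0.46 for the 8 genes beside -0.0041. PDCD1LG2 passed at 0.52 (adjusted p = 0.0100), and this call was lost without pLKO-GFP replicate 1 (0.40, adjusted p = 0.0767). CD274 and PDCD1LG2 were called with shAHR#2 only and LGALS9 with shAHR#3 only. For these genes the average is not a call shared by both hairpins. Between the hairpins, 2 of the 8 genes were higher with shAHR#3 (NECTIN2 and LGALS9) and 5 lower, with a median of -0.30 beside 0.0068. Over all tested genes 42.3% were called here, 21.9% higher and 20.4% lower with shAHR#3. The NECTIN2 call was close to the threshold (adjusted p = 0.0488), its libraries overlapped, and it was lost under most alternatives.

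**Figure D4:**
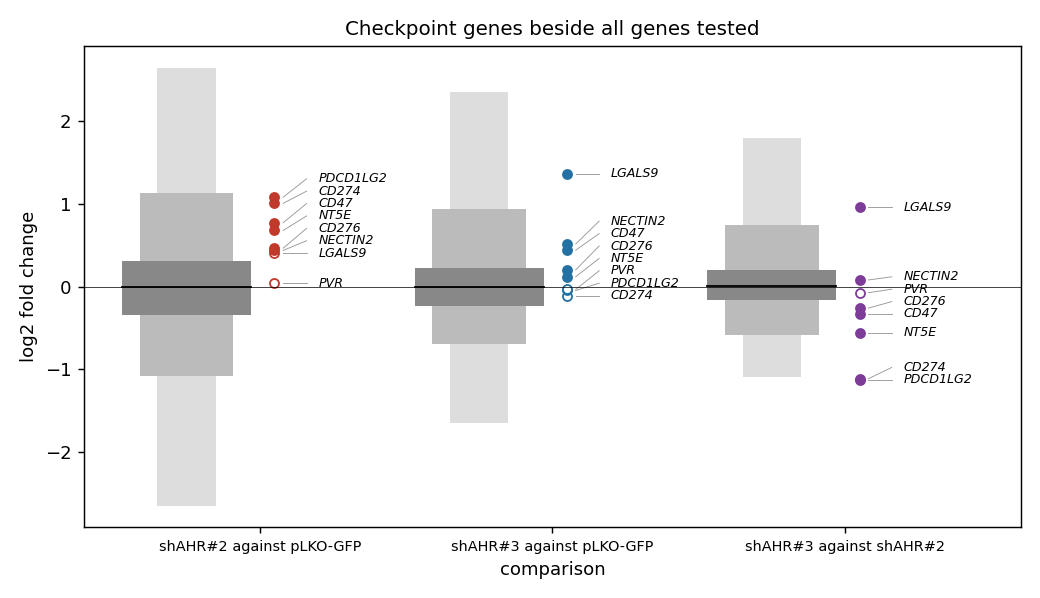
Log2 fold change (vertical axis) of the 8 tested genes as points beside all tested genes in 3 comparisons; grey boxes span the central 50%, 90% and 98% of all tested genes, black lines are their medians, and filled points passed adjusted p under 0.05. CD274 and PDCD1LG2 lie inside the central 90% with shAHR#2 and below it when shAHR#3 is set against shAHR#2.

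Levels of different genes were compared per kilobase of exon, with all annotated exons of a gene merged. The transcripts that the cells express can be shorter, so order and distances between genes depend on this length. In pLKO-GFP the order of mean level, in CPM per kb, was NT5E at 190, NECTIN2 at 32.2, CD47 at 16.6, PVR at 14.8, CD276 at 8.39, CD274 at 5.20, PDCD1LG2 at 0.995 and LGALS9 at 0.222. ENTPD1 at 0.00858 and VTCN1 at 0 closed the order and overlapped each other, while all other neighbours had libraries that did not overlap. The same order held with each hairpin. Without division by length, PVR (154 CPM), CD47 (137 CPM) and NECTIN2 (121 CPM) stood in the opposite order in pLKO-GFP. With shAHR#2 CD274 reached 10.5 CPM per kb, close under CD276 at 11.6, and with shAHR#3 it stood at 4.82 beside 9.66.

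The genes closest to CD274 over the 9 libraries, by Pearson correlation of log2 CPM among 11832 genes, were CAB39 (0.996), FNDC3A (0.996), GFPT1 (0.995), TMEM154 (0.995) and PGK1 (0.994). The 9 points form 3 groups, so these values mainly describe group means. TMEM154, a membrane protein, was at 24.6, 60.0 and 22.5 CPM on average with pLKO-GFP, shAHR#2 and shAHR#3. PGK1, a glycolytic enzyme, was at 549, 757 and 544 CPM. Among the ligand genes themselves the correlation with CD274 was 0.965 for NT5E, 0.907 for PDCD1LG2, 0.803 for CD276, 0.770 for CD47, 0.713 for PVR, 0.274 for NECTIN2 and -0.337 for LGALS9.

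**Figure D5:**
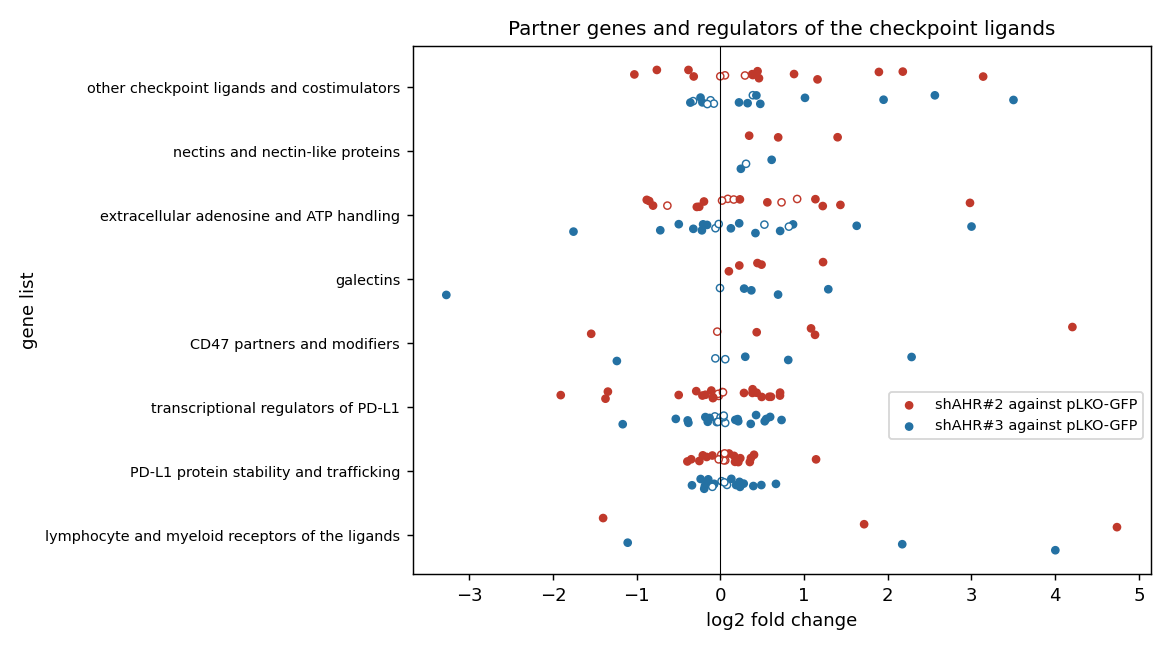
Log2 fold change (horizontal axis) of single genes in 8 lists of partners and regulators (vertical axis), with shAHR#2 in red and shAHR#3 in blue; filled points passed adjusted p under 0.05, vertical scatter within a list carries no meaning, and a gene is left out of a comparison in which a group has at most 3 reads in every library. Within each hairpin the point farthest from 0 is CD96 in the receptor list, at 4.74 with shAHR#2 and 4.00 with shAHR#3.

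Among 25 other checkpoint ligands and costimulators, 16 were tested. With shAHR#2, 9 were higher and 4 lower (median 0.38), and with shAHR#3 8 were higher and 3 lower (median 0.27). Over all tested genes, 32.6% were higher and 33.2% lower with shAHR#2, and 26.9% were higher and 27.5% lower with shAHR#3. The medians over all tested genes were -0.0032 and -6.9e-05. These shares and medians stand beside the counts of every gene and marker list below, and no list was tested as a set. CEACAM1, a ligand of TIM-3 and of itself, had 11 to 12 reads with pLKO-GFP, 82 to 101 with shAHR#2 and 133 to 147 with shAHR#3, with log2 fold changes of 3.14 (adjusted p = 1.26e-15) and 3.50 (adjusted p = 2.03e-17). VSIR (VISTA), another inhibitory B7 relative, fell by 1.03 on the log2 scale (adjusted p = 3.81e-09) with shAHR#2 and rose by 0.48 (adjusted p = 1.19e-04) with shAHR#3. NCR3LG1, a ligand of the activating receptor NKp30, fell by 0.76 on that scale (adjusted p = 0.00476) with shAHR#2 and was at -0.33 (adjusted p = 0.202) with shAHR#3.

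Of 7 other nectins and nectin-like proteins, 3 were tested. All 3 were higher with shAHR#2 (median 0.69), and 2 were higher with shAHR#3 (median 0.31). NECTIN1, an adhesion molecule that binds CD96, had log2 fold changes of 1.40 (adjusted p = 1.59e-22) and 0.61 (adjusted p = 3.46e-11). Of 14 genes in the galectin list, 6 were tested. With shAHR#2, 5 were higher and 1 lower (median 0.34), and with shAHR#3 4 were higher and 1 lower (median 0.33). Those tested include LGALS3BP, which encodes a galectin-binding protein rather than a galectin. The copy LGALS9B rose by 1.23 (adjusted p = 0.0219) and 1.29 (adjusted p = 0.0153). LGALS12 had 40 to 50 reads with pLKO-GFP, none with shAHR#2 and 4 to 6 with shAHR#3. Set against a floor of 3 reads per library, its level with shAHR#2 was at least 12.9-fold lower.

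Around NT5E and ENTPD1, 26 genes of extracellular ATP and adenosine handling were listed and 19 tested. With shAHR#2, 7 were higher and 6 lower (median 0.16), and with shAHR#3 8 were higher and 7 lower (median 0.13). ALPL, an alkaline phosphatase that can also release adenosine, had no read with pLKO-GFP, 2 to 4 with shAHR#2 and 15 to 17 with shAHR#3, at least 5.25-fold higher with shAHR#3. ADORA1, an adenosine receptor, was at -0.63 (adjusted p = 0.133) with shAHR#2 and fell by 1.75 on the log2 scale (adjusted p = 4.93e-04) with shAHR#3.

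Of 8 partners and modifiers of CD47, 7 were tested, with 4 higher and 2 lower with shAHR#2 (median 0.43) and 3 higher and 2 lower with shAHR#3 (median 0.06). SIRPB1, a relative of the CD47 receptor, had 0 to 6 reads with pLKO-GFP, 54 to 66 with shAHR#2 and 10 to 30 with shAHR#3. Its log2 fold changes were 4.21 (adjusted p = 9.90e-12) and 2.28 (adjusted p = 1.97e-04). SIRPA, the CD47 receptor itself, had 64 to 94 reads with pLKO-GFP, 143 to 171 with shAHR#2 and 74 to 98 with shAHR#3. THBS2, a thrombospondin, had 17 to 24 reads with pLKO-GFP and at most 3 with either hairpin, which is at least 5.57-fold lower for shAHR#2 and at least 6.66-fold for shAHR#3. The far more abundant THBS1, of the same family, was at 1957, 672 and 831 CPM on average with pLKO-GFP, shAHR#2 and shAHR#3.

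Of 24 known transcriptional regulators of PD-L1, 23 were tested, with 9 higher and 9 lower with shAHR#2 (median -0.02) and 9 higher and 7 lower with shAHR#3 (median 0.04). The shares over all tested genes were 32.6% higher and 33.2% lower for shAHR#2 and 26.9% higher and 27.5% lower for shAHR#3, so nothing is read from these counts about the regulators. SOCS3, an inhibitor of cytokine signalling, rose by 0.71 (adjusted p = 4.95e-16) and 0.73 (adjusted p = 3.15e-16), whereas SOCS1, of the same family, fell by 1.91 (adjusted p = 1.18e-04) and 1.17 (adjusted p = 0.00562) on the log2 scale. FOS, a subunit of AP-1, fell by 1.37 (adjusted p = 1.40e-06) with shAHR#2 and rose by 0.60 (adjusted p = 0.00266) with shAHR#3. Genes of PD-L1 protein stability and trafficking, all 20 tested, gave 9 higher and 6 lower with shAHR#2 (median 0.06) and 8 higher and 7 lower with shAHR#3 (median 0.03). B3GNT3, a glycosyltransferase that modifies PD-L1, rose by 1.14 (adjusted p = 5.67e-05) and 0.66 (adjusted p = 0.0190). BTRC, an E3 ligase adaptor, fell by 0.35 (adjusted p = 4.14e-06) and 0.34 (adjusted p = 6.27e-06). HIP1R, which sorts PD-L1 to lysosomes, was at 0.01 (adjusted p = 0.882) with shAHR#2 and rose by 0.49 (adjusted p = 1.16e-09) with shAHR#3.

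Most of the listed receptors of the ligands had too few reads to be tested in these tumour cells. Of 13 listed, 3 were tested (CD96, CD226 and CRTAM), and PDCD1, TIGIT, PVRIG and ICOS had no read in any library. CRTAM had 15 to 25 reads with pLKO-GFP, 51 to 67 with shAHR#2 and 95 to 109 with shAHR#3. CD96, a receptor of PVR, had 93 to 112 reads with pLKO-GFP, 2146 to 2638 with shAHR#2 and 1570 to 1726 with shAHR#3. It rose by 4.74 (adjusted p = 5.07e-38) and 4.00 (adjusted p = 6.34e-35) on the log2 scale, with all groups apart. CD226, the activating receptor of PVR and NECTIN2, had 17 to 27 reads with pLKO-GFP and 3 to 12 with the hairpins, and fell by 1.40 (adjusted p = 0.00232) and 1.11 (adjusted p = 0.0102). The summed leukocyte markers were also higher with the hairpins. Among them PTPRC (CD45) had 1 to 4 reads with pLKO-GFP and 14 to 33 with the hairpins, LYZ (lysozyme) 8 to 13 and 23 to 59, and CD14 17 to 21 and 4 to 16, while the T, B and natural killer cell markers named above were at 0.

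Of the 10 leukocyte markers 3 were tested, with 2 higher and 1 lower with shAHR#2 and 2 higher and 0 lower with shAHR#3. Of the 8 fibroblast and endothelial markers 5 were tested, with 2 higher and 2 lower with shAHR#2 and 4 higher and 1 lower with shAHR#3. They held PECAM1, which rose by 2.22 (adjusted p = 6.99e-17) and 2.35 (adjusted p = 1.20e-17), COL1A2, which fell by 2.05 (adjusted p = 1.09e-05) and 2.51 (adjusted p = 7.35e-07), and LUM, at -0.84 (adjusted p = 0.212) with shAHR#2 and 1.47 (adjusted p = 0.00247) with shAHR#3. Of the 10 carcinoma markers 8 were tested, with 4 higher with shAHR#2, 7 higher with shAHR#3 and 0 lower with either. Among them CDH1 (E-cadherin) had 14 to 20 reads with pLKO-GFP, 24 to 40 with shAHR#2 and 72 to 94 with shAHR#3.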

How the data were processed

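Reads were sequenced from stranded mRNA libraries of MDA-MB-231 cells, 3 per group. The authors deposited raw counts, whole numbers of reads per gene without normalization. The submitters' processing notes name FastQC, STAR, Subread, featureCounts and GRCh38.p13. The annotation release and the use of strand are not given in the sources used here.

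From the counts, genes were kept by filterByExpr (minimum count 10, minimum total 15), libraries were scaled by TMM, and edgeR's quasi-likelihood test was fitted to all 9 libraries with a mean per group, p-values adjusted by Benjamini-Hochberg and called under 0.05 (R 4.3.3, edgeR 4.0.16, limma 3.58.1; figures in Python 3.11.15 with matplotlib 3.10.9). The study used DESeq2 (1.42.0 here), an alternative. The other alternatives were DESeq2 size factors, no filter, a mean of at least 50 counts, a fit of the compared groups alone, the replicate number as a block, a further limit of 1 on the absolute log2 fold change, each library left out, and LGALS9 summed with its copies. The fits were also run on counts simulated from the fitted model, with few genes changed. That run cannot show how the test behaves where most genes change, as here. Exon lengths and positions came from GENCODE 44, which held 60507 of the 60649 identifiers, and promoters from RefSeq (GRCh38.p14). Correlations with CD274 used log2 CPM with a pseudocount of 1, over genes with an average log2 CPM of 1 or more.

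The 10 genes and all gene lists were chosen with earlier results of these data known. Named were all 10 genes, AHR, the 5 genes most like CD274, and from each list the largest called rise, fall and difference between hairpins. PLGRKT, ENTPD1-AS1, LGALS9C, SIRPA, THBS1 and the markers and receptors given by counts were named after their values were seen. Replicate counts of a group differed by more than sampling noise, so each library counted once. Such a spread does not show that the libraries came from separate cultures. The common coefficient of variation between replicates, beyond sampling noise, was 2.96%. The values of 1 gene of the marker lists are not reported here.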

Additional observations from a re-analysis of the deposited data

Results flagged for a closer look

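For 7 of the 8 tested genes the effect of the hairpins differed by a direct test of shAHR#3 against shAHR#2 (edgeR, Benjamini-Hochberg adjusted), beside 42.3% of all tested genes. CD274 differed by -1.12 on the log2 scale (adjusted p = 7.71e-17) and PDCD1LG2 by -1.13 (adjusted p = 5.30e-06), with every shAHR#3 library below every shAHR#2 library for both. CD276 differed by -0.26 (adjusted p = 4.17e-05), CD47 by -0.33 (adjusted p = 3.30e-11) and NT5E by -0.56 (adjusted p = 3.42e-20), again with no overlap. LGALS9 differed the other way, by 0.96 (adjusted p = 4.99e-04), with every shAHR#3 library above. NECTIN2 differed by 0.0793 (adjusted p = 0.0488), its libraries overlapped, and the call was lost under 8 alternatives. AHR itself was 1.14-fold higher with shAHR#3 than with shAHR#2 (log2 difference 0.19, adjusted p = 0.00283, and 0.13 with adjusted p = 0.0626 without shAHR#3 replicate 2). Its part in these differences was not tested.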

How the results depend on the processing

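Of 400 values of single genes under an alternative, 382 kept direction and side of the threshold, 9 lost the call, 4 gained it and 5 reversed. With a further limit of 1 on the absolute log2 fold change, the number of the 8 genes called was 2 with shAHR#2, 1 with shAHR#3, 0 for the mean of both and 2 between the hairpins, and all genes called fell from 9390 to 1691, 7771 to 961, 9185 to 1177 and 6031 to 530, since that rule asks for a larger change. Leaving out each library gave 6 with shAHR#2, 5 with shAHR#3, 6 to 7 for the mean of both (6 without pLKO-GFP replicate 1) and 6 to 7 between the hairpins. The reversals were of small values: PDCD1LG2 with shAHR#3 ranged from -0.24 to 0.10 with a library left out (0.10 when pLKO-GFP replicate 3, and 0.08 when shAHR#3 replicate 1, was left out), and PVR for the mean of both was -9.97e-04 with no filter and ranged from -0.0165 to 0.0185 with a library left out (-0.0165 when pLKO-GFP replicate 2, and -0.0050 when shAHR#3 replicate 3, was left out). NECTIN2 between the hairpins was not called by DESeq2 (adjusted p = 0.119), and PVR there was called with DESeq2 size factors (-0.08, adjusted p = 0.0382) and without shAHR#3 replicate 3 (-0.09, adjusted p = 0.0246). With the replicate block, 6, 5, 7 and 8 genes were called in the same order, PVR between the hairpins being the gain (adjusted p = 0.0481). Same-numbered libraries deviated together with a correlation of -0.0173 to 0.0566, beside -0.0647 to 0.0430 for libraries of different number. Of 9 libraries, 8 correlated best with their own number. What same-numbered libraries share besides the number was not tested. Depth limits VTCN1, ENTPD1 and LGALS9 most. The causes of these changes were not tested.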
